A study of Mus musculus with 11 samples.

Results

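The genes described here encode the glutathione and antioxidant enzymes expressed in gonadal white adipose tissue (WAT) of mice on a high fat diet. Members were taken by a rule on symbols, as superoxide dismutases, peroxiredoxins, glutathione peroxidases, glutathione transferases (families Gst and Mgst), thioredoxins and thioredoxin reductases, catalase, the enzymes of glutathione synthesis and recycling, sulfiredoxin, and the NRF2 axis with its classic targets Nqo1 and Hmox1. The rule was set with earlier results of these data known. Of the 12787 listed genes, 43 met the rule. Gclm, which the rule also names, was not analysed here. Male mice of strain C57Bl6/J were fed a 60% high fat diet (HFD) for 20 weeks, either alone (labelled Vehicle, n = 5, HFD control mice) or with 0.06% w/w iodomethylcholine (IMC, n = 6, IMC-treated mice) in the diet. IMC blocks the microbial enzyme that makes trimethylamine from choline, and the question was how it alters gene expression in fat of mice that otherwise share diet, strain and sex. Each library came from 1 mouse, and the labels give no age.

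Cells remove superoxide in steps. Superoxide dismutases turn it into hydrogen peroxide, and catalase, the peroxiredoxins and the glutathione peroxidases reduce the peroxide to water. Peroxiredoxins are recharged by thioredoxin and thioredoxin reductase, and glutathione peroxidases by glutathione, which Gsr restores with NADPH. Glutathione transferases couple glutathione to reactive lipids, aldehydes and foreign compounds. Many of these genes are targets of NRF2 (Nfe2l2), a transcription factor that KEAP1 marks for degradation until oxidants or electrophiles inactivate KEAP1. In obese fat, adipocytes and infiltrating macrophages are both sources of these enzymes.

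NRF2 binds the antioxidant response element, whose core is spelled TGACNNNGC. RefSeq promoter windows of GRCm38.p6 (250 bases before to 50 after a transcript start) were at hand for 37 of the 43 members, and the core was searched on both strands. It was found in windows of 7 members (18.9%), against 17.1% of the 9749 listed genes with a window and 12.4% of all 32851 windows, so the share among the members was near that of the listed genes. Hmox1, Gclc, Gsr, Sod3, Prdx6 and Gstt2 had no window and were not searched. The 7 matches are printed because they show which of the searched members carry the letters. Each is read 5′ to 3′ on the strand of the match, with the 9 letters of the core in capitals and 10 flanking bases on each side.
Prdx1 chr4:116685456-116685484 (minus strand, centred at -129 from the start): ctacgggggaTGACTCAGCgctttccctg
Srxn1 chr2:152105542-152105570 (minus strand, centred at 32): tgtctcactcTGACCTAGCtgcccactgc
Txnrd1 chr10:82859104-82859132 (minus strand, centred at -88): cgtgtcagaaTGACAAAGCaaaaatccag
Nfe2l2 chr2:75704885-75704913 (minus strand, centred at -236): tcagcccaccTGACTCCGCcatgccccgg
Mgst1 chr6:138140461-138140489 (minus strand, centred at -52): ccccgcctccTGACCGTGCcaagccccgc
Sod1 chr16:90220696-90220724 (minus strand, centred at -52): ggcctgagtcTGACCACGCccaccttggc
Gsta3 chr1:21240454-21240482 (plus strand, centred at -117): aactcaggcaTGACATTGCatttttcttc

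A match is a description of the letters and not a bound site. Among the 7 genes with a match, Prdx1, Srxn1, Txnrd1 and Nfe2l2 were lower in IMC-treated mice, Mgst1 was higher, and Sod1 and Gsta3 did not pass the test, as described gene by gene below. Among all 37 members with a window, 9 were lower and 12 higher (24.3% and 32.4%, against 21% and 20% of all genes).

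Reads on the listed genes numbered 22320022 to 23635249 in HFD control mice and 22619505 to 25155366 in IMC-treated mice. Levels are log2 CPM (the log2 of read counts relative to a library size scaled by the upper quartile), and every fold change is the difference of 2 mean log2 CPM values, positive where IMC-treated mice were higher. All 14 adipocyte markers were listed for this tissue labelled as adipose, while 0 of 8 red blood cell markers and 0 of 10 epididymis markers were listed. Several lists of cell type markers differed between the groups. Over all genes, 20% were higher and 21% lower with IMC. The summed level of the adipocyte markers was 20551 to 26042 CPM in HFD control mice and 32386 to 37406 CPM in IMC-treated mice, with 13 of 14 genes higher. The summed level of the 16 macrophage markers was 14791 to 19148 CPM and 7985 to 12130 CPM, with 13 lower, and that of 6 listed mast cell markers was 501.8 to 1149 CPM and 159.6 to 322.8 CPM, with 6 lower. Fibroblast markers had 6 of 10 genes lower (9510 to 12093 CPM against 7461 to 9673 CPM). Endothelial markers had 2 of 8 higher, near the share of all genes (509.9 to 669.4 CPM against 585.9 to 786.6 CPM). The summed ranges of these lists overlapped between the groups. Of skeletal muscle markers 4 of 10 were listed and 2 were higher, of mesothelial markers 4 of 8 and 1 was lower, of Schwann cell markers 5 of 6 and of lymphocyte markers 1 of 10, and none of the last 2 lists passed the test in either direction. The part of these shifts in the results on antioxidant genes was not tested.

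HFD control mouse 1 stood apart in many members. It held the highest value of its group for 19 of the 43 members (44.2%), against 21.6% of all listed genes, and it had the highest macrophage sum (19148 CPM) and mast cell sum (1149 CPM) of all mice. HFD control mouse 3 held the lowest value of its group for 14 members (32.6%, against 13.6% of all genes). IMC-treated mouse 5 held the lowest value of its group for 15 members (34.9%, against 16.8% of all genes) and the highest for 0. Results that lean on HFD control mouse 1 are therefore given with and without it.

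IMC treatment went with changes in both directions among the antioxidant genes. At an adjusted p under 0.05 (limma, Benjamini-Hochberg over all 12787 genes), 24 of the 43 members passed (55.8%, against 40.9% of all genes). Of these, 14 were higher with IMC (32.6%, against 20% of all genes) and 10 were lower (23.3%, against 21%). For 14 members no value of one group fell within the range of the other (32.6%, against 23.1% of all genes), 8 of them higher and 6 lower. The median log2 fold change of the members was -0.01, and that of all genes was -0.03, while the median size of the change was 0.27 for members and 0.18 for all genes. Without HFD control mouse 1, 14 members were higher and 9 lower. In RNA from whole tissue, fewer cells of a type and less RNA per cell cannot be told apart.

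**Figure D1:**
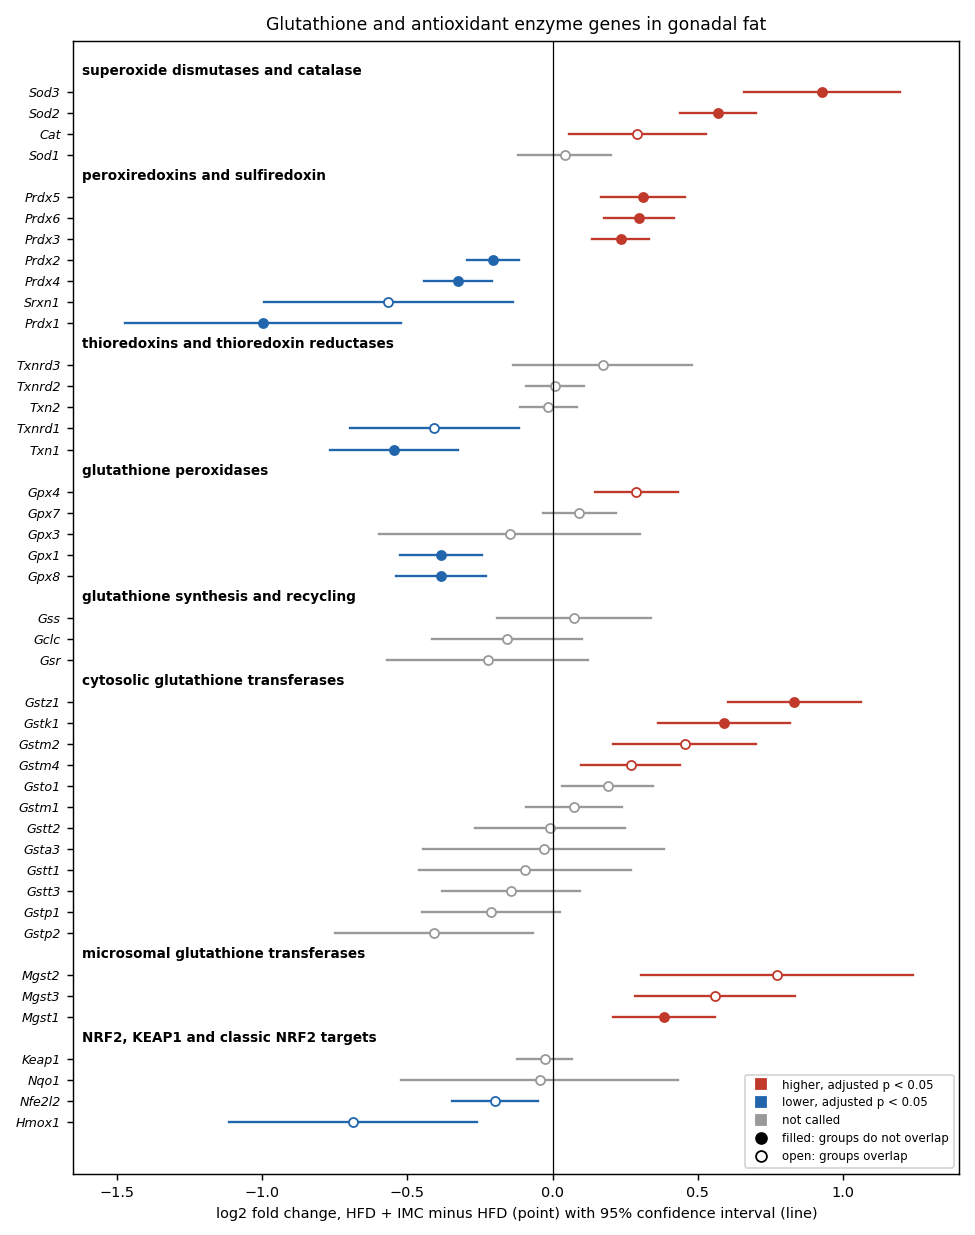
Log2 fold change of each of the 43 members (point, x axis; HFD + IMC minus HFD) with its 95% confidence interval (line), in blocks by role. Red is higher and blue lower at an adjusted p under 0.05, grey did not pass, and filled points mark genes whose groups do not overlap. Sod3 (0.93) and Gstz1 (0.83) lie farthest to the right and Prdx1 (-0.997) farthest to the left.

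Among the superoxide dismutases, the extracellular and the mitochondrial enzyme rose and the cytosolic one did not pass the test. Sod3, the secreted copper-zinc enzyme (chromosome 5, 52363791 to 52371418 of GRCm38), was at 8.21, 8.78, 8.39, 8.35 and 8.93 log2 CPM in HFD control mice 1 to 5. In IMC-treated mice its lowest, median and highest values were 9.33, 9.38 and 9.70. All IMC-treated mice therefore lay above all HFD control mice, and the level was 1.9-fold higher (log2 fold change 0.93, SE 0.13, limma adjusted p = 0.000136). Sod2, the manganese enzyme of the mitochondrial matrix (chromosome 17, 13006846 to 13040063), was at 6.97, 7.19, 7.05, 7.10 and 7.25 log2 CPM in the controls. With IMC it ranged from 7.57 to 7.79 with a median of 7.67. Its groups were also apart, and the rise of Sod2 of 0.57 (SE 0.06) had the smallest adjusted p of any member (3.64e-05 by limma). Its transcripts share 21% of their 50-base words with other genes, so its counts are uncertain. Sod1, the cytosolic copper-zinc enzyme, lay between 7.24 and 7.53 log2 CPM in the controls and between 7.23 and 7.60 with IMC. Its difference of 0.04 (95% interval -0.12 to 0.20) was within the spread between mice.

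The makeup of the superoxide dismutase transcripts shifted with these changes. Expressed per kilobase of exon, so that genes can be set beside each other, the 3 genes summed to 388.1 ± 39.7 CPM per kb (SD, n = 5) in HFD control mice and 495.5 ± 44.9 CPM per kb (SD, n = 6) in IMC-treated mice. Sod3 made up 25.9% ± 3.63 (SD, n = 5) of this sum in the controls and 38.2% ± 1.81 (SD, n = 6) with IMC. Sod1 remained the most abundant of the 3 per kilobase, at 68.0% ± 3.8 (SD, n = 5) and 54.7% ± 1.91 (SD, n = 6). This ranking rests on the exon lengths used. Before scaling by length Sod3 was the highest, at means of 8.53 (HFD control) and 9.46 (IMC) log2 CPM, against 7.395 and 7.436 for Sod1. Per kilobase Sod2 was the lowest of them in each mouse, with a share between 5.49% and 7.77%.

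Catalase, which breaks down hydrogen peroxide in peroxisomes, was the member of this class with the highest mean level per kilobase (8.13 log2 CPM per kb). Cat was at 9.67, 9.51, 8.97, 9.09 and 9.43 log2 CPM in HFD control mice 1 to 5 and at 9.54, 9.64 and 9.71 (lowest, median and highest) in IMC-treated mice. Of the controls only mouse 1 lay within the range of the IMC-treated mice, and mice 3 and 4 were the lowest. The log2 fold change was 0.29 (SE 0.11), and its adjusted p of 0.0482 by limma was the call nearest to the threshold. Just outside it were Gsto1 (0.0512) and Gstp2 (0.0529). The Cat call was lost in 9 of the 11 fits that each left out a mouse (limma adjusted p 0.0535 to 0.127) and was kept without HFD control mouse 1 or 2. Without mouse 1 the log2 fold change was 0.38 (limma adjusted p = 0.012).

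All 7 genes of the peroxiredoxin system passed the test (100%, against 40.9% of all genes), in opposite directions. In 6 of them the ranges of the groups were apart (85.7%, against 23.1% of all genes). Prdx1, Prdx2, Prdx4 and Srxn1 fell, while Prdx3, Prdx5 and Prdx6 rose. Prdx1, the main cytosolic peroxiredoxin (chromosome 4, 116685544 to 116700822), had the largest absolute change of all members. It was at 10.93, 10.01, 9.55, 9.40 and 9.90 log2 CPM in HFD control mice 1 to 5 and at 8.75, 8.88 and 9.35 (lowest, median and highest) in IMC-treated mice. Mouse 1 was far above the other controls, yet the lowest control still lay above the highest IMC-treated mouse. Mean levels were 9.96 ± 0.60 (SD, n = 5) and 8.96 ± 0.23 (SD, n = 6) log2 CPM, a log2 fold change of -0.997 (SE 0.22, limma adjusted p = 0.0032). Prdx1 thus fell by 49.9%. Without HFD control mouse 1 the log2 fold change was -0.76 (SE 0.14, limma adjusted p = 0.00179).

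Srxn1 encodes sulfiredoxin, which repairs over-oxidized peroxiredoxins. It was at 8.41, 7.51, 7.10, 6.93 and 7.46 log2 CPM in HFD control mice 1 to 5, and at 6.80, 6.88 and 7.15 in IMC-treated mice (lowest, median and highest). The pattern over the controls was that of Prdx1, with mouse 1 the highest and mice 3 and 4 the lowest, and control mice 3 and 4 overlapped with the IMC-treated mice. Its log2 fold change was -0.57 (SE 0.20, limma adjusted p = 0.0363). Without HFD control mouse 1 the change was -0.33 (SE 0.11, limma adjusted p = 0.0323). Leaving out HFD control mouse 2 or 5, or IMC-treated mouse 1, 2, 3, 5 or 6, ended the call (limma adjusted p 0.0526 to 0.0647).

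The other peroxiredoxins changed less, with little spread inside the groups. Prdx4, the enzyme of the endoplasmic reticulum, ranged from 5.80 to 6.10 log2 CPM in the controls and from 5.58 to 5.74 with IMC (log2 fold change -0.33, SE 0.06, limma adjusted p = 0.000552). Prdx2, a second cytosolic peroxiredoxin, ranged from 7.18 to 7.33 and from 6.94 to 7.07 (log2 fold change -0.21, SE 0.04, limma adjusted p = 0.00191). Prdx5, found in mitochondria, peroxisomes and cytosol, lay at 7.37 to 7.70 in the controls and at 7.73 to 8.03 with IMC (log2 fold change 0.31, SE 0.07, limma adjusted p = 0.00286). Prdx6, which uses glutathione in place of thioredoxin, ranged from 7.99 to 8.27 in the controls and from 8.35 to 8.54 with IMC (log2 fold change 0.30, SE 0.06, limma adjusted p = 0.00119). The mitochondrial Prdx3 was at 6.81 to 6.96 in the controls and at 7.03 to 7.22 with IMC (log2 fold change 0.24, SE 0.05, limma adjusted p = 0.00141). Each of these 5 kept its call in all alternatives.

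Mean Prdx1 was 421.7 CPM per kb in HFD control mice and 198.1 CPM per kb in IMC-treated mice, a wider gap than that between the sums over the family. The 6 peroxiredoxins summed to 1226, 872.3, 757.5, 731.4 and 864.7 CPM per kb in HFD control mice 1 to 5 and to between 670 and 768.8 CPM per kb in IMC-treated mice, so the sums overlapped. Prdx1 made up 62.5%, 46.6%, 39.0%, 36.2% and 43.4% of the sum in the same controls, and between 24.2% and 33.4% in IMC-treated mice. On average the Prdx1 share was 45.6% ± 10.3 (SD, n = 5) and 27.7% ± 3.48 (SD, n = 6). Prdx5 went from 15.1% ± 2.68 (SD, n = 5) to 22.7% ± 2.01 (SD, n = 6) of the sum, and Prdx6 from 13.2% ± 2.95 (SD, n = 5) to 19.5% ± 0.535 (SD, n = 6). The shares of Prdx2 and Prdx4 were alike in the groups, at 9.505% and 9.995% for Prdx2 and 7.38% and 7.10% for Prdx4.

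**Figure D2:**
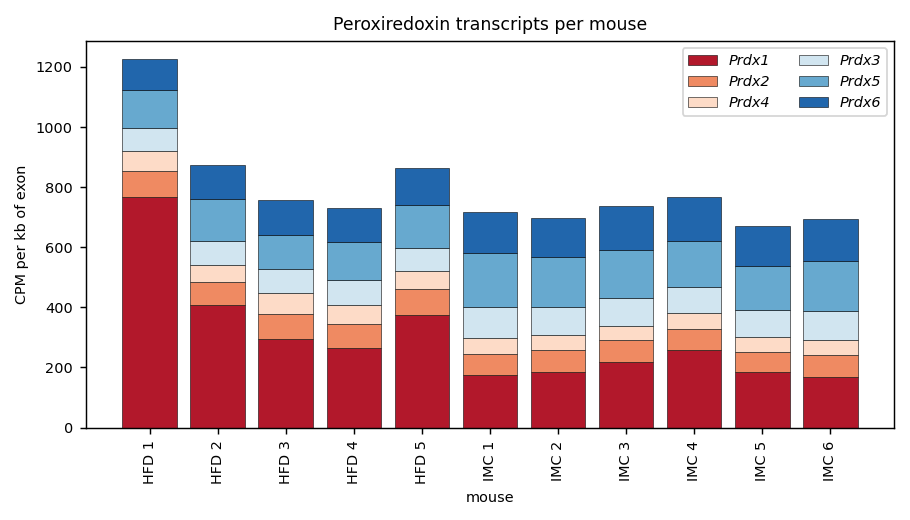
Stacked bars of the 6 peroxiredoxin genes in each mouse, in CPM per kb of exon (y axis, from 0), with 1 bar per mouse. The red Prdx1 segment falls from 45.6% of the bar on average in HFD control mice to 27.7% in IMC-treated mice, and HFD control mouse 1 has the tallest bar (1226 CPM per kb).

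In the thioredoxin system, which returns electrons to the peroxiredoxins, the cytosolic pair fell and the mitochondrial pair did not pass the test. The share called in this class, 2 of 5 genes (40%), was near the 40.9% of all genes. Txn1, the cytosolic thioredoxin (chromosome 4, 57943373 to 57956411), was at 8.43, 7.98, 7.82, 7.78 and 8.05 log2 CPM in HFD control mice 1 to 5. With IMC the lowest, median and highest values were 7.30, 7.44 and 7.61. No value of the groups overlapped, and the log2 fold change was -0.55 (SE 0.10, limma adjusted p = 0.00114). Txnrd1, the cytosolic thioredoxin reductase and a selenoprotein, was at 8.33, 7.76, 7.42, 7.35 and 7.69 log2 CPM in the controls and at 7.20, 7.31 and 7.38 with IMC. Control mouse 4 lay inside the IMC-treated range and mouse 1 was the highest again. The log2 fold change of Txnrd1 was -0.41 (SE 0.14, limma adjusted p = 0.0279) and -0.25 (SE 0.08, limma adjusted p = 0.0252) without HFD control mouse 1. Leaving out HFD control mouse 2 or IMC-treated mouse 1 ended this call (limma adjusted p between 0.0539 and 0.0559). Txnrd1 shares its strand with the overlapping gene Eid3, so its reads could have been counted with those of Eid3.

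Mitochondrial thioredoxin (Txn2) and its reductase (Txnrd2) differed little, with narrow intervals. Txn2 lay between 6.79 and 6.96 log2 CPM in the controls and between 6.78 and 6.95 with IMC, a difference of -0.02 (95% interval -0.11 to 0.08). Txnrd2 differed by 0.01 (95% interval -0.09 to 0.11). Txnrd3, the remaining reductase, was at 3.62, 3.47, 3.45, 3.61 and 4.33 log2 CPM in the controls, and its difference of 0.17 (95% interval -0.13 to 0.48) did not pass the test. Control mouse 5 was the highest of all mice for this gene, and without it the log2 fold change of Txnrd3 was 0.33 and passed (limma adjusted p = 0.0114).

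**Figure D3:**
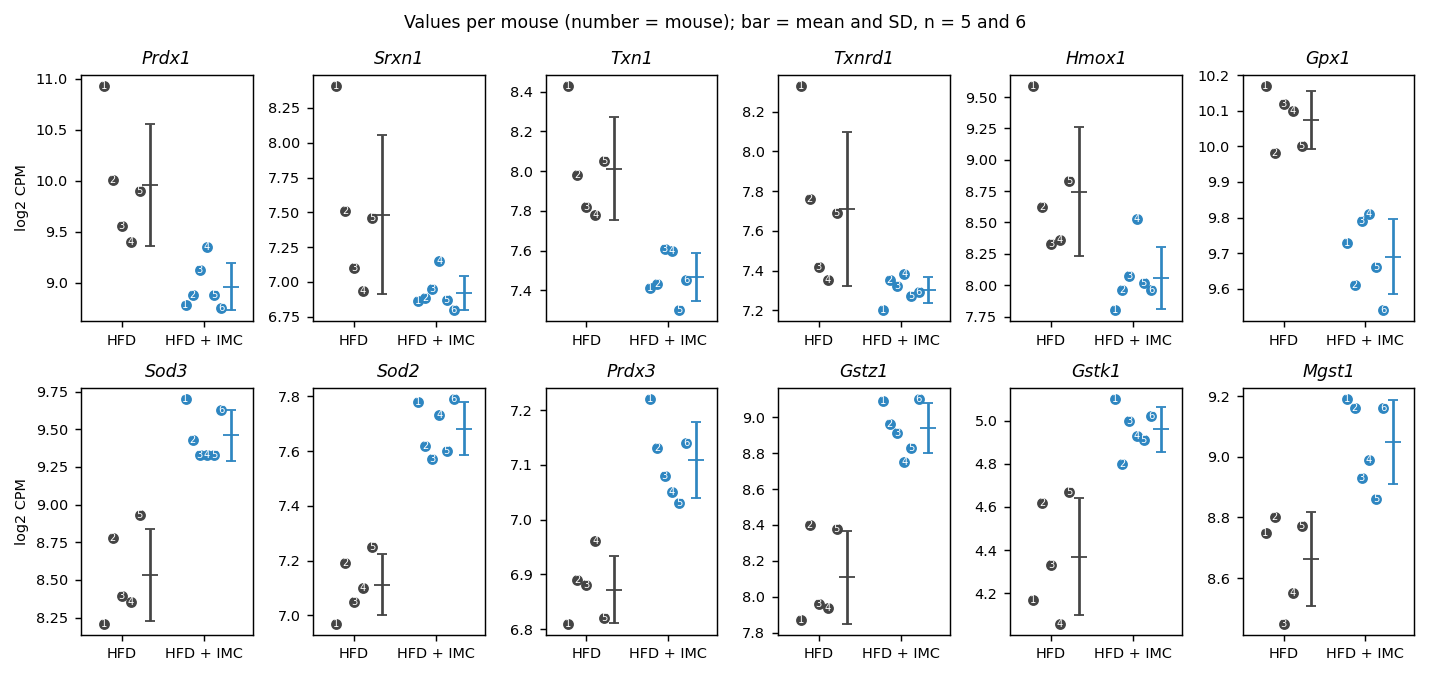
Log2 CPM of 12 members in each mouse (numbered points) with the group mean and SD (bars; HFD n = 5 in black, HFD + IMC n = 6 in blue), each panel with its own y axis that does not start at 0. The upper row holds 6 genes that were lower with IMC, among them Prdx1 with HFD control mouse 1 at 10.93, and the lower row 6 genes that were higher, whose groups do not overlap.

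Of the 5 glutathione peroxidases, 2 fell, 1 rose and 2 did not pass the test (60% called, against 40.9% of all genes). Gpx1, the cytosolic enzyme (chromosome 9, 108338903 to 108340343), had the highest mean level per kilobase of all members (9.78 log2 CPM per kb). It was at 10.17, 9.98, 10.12, 10.10 and 10 log2 CPM in HFD control mice 1 to 5 and at 9.54, 9.70 and 9.81 (lowest, median and highest) in IMC-treated mice. The groups were apart, with a log2 fold change of -0.38 (SE 0.07, limma adjusted p = 0.000636) that was -0.36 without HFD control mouse 1. Gpx8, an enzyme of the endoplasmic reticulum, was at 5.31, 5.10, 5.22, 4.98 and 4.95 log2 CPM in the controls and at 4.65, 4.69 and 4.85 with IMC. It too fell without overlap, by 0.38 on the log2 scale (SE 0.07, limma adjusted p = 0.0011).

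Gpx4, which reduces peroxides within membrane lipids, went the other way, at 6.05 to 6.25 log2 CPM in the controls and 6.23 to 6.59 with IMC (log2 fold change 0.29, SE 0.07, limma adjusted p = 0.0039). Its transcripts share 34.7% of their 50-base words with other annotated genes, processed copies among them, so its counts are uncertain. Gpx3, the secreted plasma enzyme, spread widely among IMC-treated mice, from 7.96 to 9.21 log2 CPM, against 8.41 to 9.0 in the controls. Its difference of -0.15 had a 95% interval of -0.60 to 0.30. Gpx7, the other family member of the endoplasmic reticulum, differed by 0.09 (95% interval -0.03 to 0.22). The family summed to 1382 ± 77.5 CPM per kb (SD, n = 5) in HFD control mice and 1140 ± 61.5 CPM per kb (SD, n = 6) in IMC-treated mice, of which Gpx1 was 72.8% ± 1.73 (SD, n = 5) and 68.0% ± 6.76 (SD, n = 6).

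None of the 3 listed genes of glutathione synthesis and recycling passed the limma test (0%, against 40.9% of all genes), with 0 higher and 0 lower. Gclc, the catalytic subunit of the rate-limiting ligase, was at 5.85, 5.24, 5.12, 5.04 and 5.19 log2 CPM in HFD control mice 1 to 5 and at 5.03, 5.12 and 5.30 with IMC. Gss, glutathione synthetase, was at 5.32, 4.78, 4.52, 4.52 and 4.98 log2 CPM in the controls and at 4.80, 4.90 and 4.99 with IMC. Gsr, glutathione reductase and the class member with the highest mean level per kilobase, was at 6.76, 6.02, 5.69, 5.72 and 6.03 log2 CPM in the controls and at 5.60, 5.80 and 6.12 with IMC. In each of the 3, control mouse 1 was the highest of all mice. The ranges of the groups overlapped, though for Gss control mice 2, 3 and 4 lay below all IMC-treated mice. The log2 fold changes were -0.16 for Gclc (95% interval -0.42 to 0.10), 0.07 for Gss (95% interval -0.19 to 0.34) and -0.22 for Gsr (95% interval -0.57 to 0.12). Without HFD control mouse 1 they were -0.02, 0.20 and -0.04, with limma adjusted p values of 0.863, 0.11 and 0.761.

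Among the cytosolic-type glutathione transferases, 4 of 12 rose and 0 fell (33.3% called, against 40.9% of all genes). Gstz1 (maleylacetoacetate isomerase), which works in tyrosine breakdown, lies on chromosome 12 from 87147165 to 87164723. It was at 7.87, 8.40, 7.96, 7.94 and 8.38 log2 CPM in HFD control mice 1 to 5 and at 8.75, 8.94 and 9.10 (lowest, median and highest) in IMC-treated mice. The groups did not overlap, and the level was 1.78-fold higher (log2 fold change 0.83, SE 0.11, limma adjusted p = 9.63e-05). The Gstz1 interval overlaps Pomt2 on the opposite strand. Gstk1, the kappa-class enzyme of mitochondria and peroxisomes, was at 4.17, 4.62, 4.33, 4.06 and 4.67 log2 CPM in the controls and at 4.80, 4.96 and 5.10 with IMC. It also rose without overlap, by 0.59 on the log2 scale (SE 0.11, limma adjusted p = 0.000831). The controls that were high for Gstz1, mice 2 and 5, were also the high ones for Gstk1. These mice also had the highest adipocyte marker sums of the controls (25313 and 26042 CPM), and the part of adipocyte content was not tested.

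The mu-class genes were mixed. Gstm2 was at 5.42, 5.48, 5.30, 5.25 and 5.66 log2 CPM in HFD control mice and at 5.48, 5.89 and 6.18 with IMC (log2 fold change 0.45, SE 0.11, limma adjusted p = 0.00692), and IMC-treated mouse 4 lay inside the control range. Gstm4 rose by 0.27 (SE 0.08, limma adjusted p = 0.0163), while Gstm1 differed by 0.07 (95% interval -0.09 to 0.24). Gsto1, the omega-class enzyme, had a log2 fold change of 0.19 (SE 0.07). The theta-class genes Gstt1, Gstt2 and Gstt3 differed by -0.10, -0.01 and -0.14 and the alpha-class gene Gsta3 by -0.03, none past the test. The pi-class genes Gstp1 and Gstp2 had values of -0.21 and -0.41 that did not pass. Gstp2 was the least abundant member, with between 26 and 48 reads per mouse, and 54.3% of its 50-base words occur in other genes, Gstp1 first among them. The counts of Gstp1 (33.7%), Gstm1 (18.9%) and Gstt3 (12.5%) are uncertain for the same reason.

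All 3 microsomal glutathione transferases rose (100%, against 20% of all genes). Mgst1, the most abundant of them (chromosome 6, 138140316 to 138156755), protects membranes of the endoplasmic reticulum and the outer mitochondrial membrane from lipid peroxides. It was at 8.75, 8.80, 8.45, 8.55 and 8.77 log2 CPM in HFD control mice 1 to 5 and at 8.86, 9.07 and 9.19 (lowest, median and highest) in IMC-treated mice. The groups lay close but did not overlap (log2 fold change 0.38, SE 0.08, limma adjusted p = 0.00243). Mgst3 was at 6.17, 6.34, 6.07, 6.15 and 6.66 log2 CPM in the controls and at 6.47, 6.94 and 7.05 with IMC (log2 fold change 0.56, SE 0.13, limma adjusted p = 0.00389), and control mouse 5 lay inside the range of the IMC-treated mice. Mgst2, which can make leukotriene C4 as well as detoxify, was at 2.91, 3.70, 3.09, 3.34 and 3.68 log2 CPM in the controls and at 3.56, 4.08 and 4.66 with IMC. Its log2 fold change of 0.77 (SE 0.22, limma adjusted p = 0.0127) was the largest of the 3, with overlap at IMC-treated mice 3 and 5. The Mgst2 interval overlaps another annotated gene on its own strand. Summed adipocyte markers moved in the same direction as these genes, and their part was not tested.

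In the NRF2 axis, 2 of 4 genes were lower and 0 higher (50% and 0%, against 21% and 20% of all genes). Nfe2l2 itself was at 7.51, 7.48, 7.47, 7.30 and 7.24 log2 CPM in HFD control mice 1 to 5 and at 6.98, 7.24 and 7.33 in IMC-treated mice. The ranges overlapped, and the log2 fold change was -0.20 (SE 0.07, limma adjusted p = 0.0352). It did not pass without HFD control mouse 1 (-0.17, limma adjusted p = 0.0889), nor when HFD control mouse 2 or 3 or IMC-treated mouse 2 or 6 was left out (limma adjusted p from 0.0623). Keap1, which holds NRF2 back, was at 6.09, 5.96, 5.97, 6.08 and 6.09 log2 CPM in the controls and at 5.96, 6.00 and 6.08 with IMC, a difference of -0.03 (95% interval -0.12 to 0.07).

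Of the classic NRF2 targets, Hmox1 fell and Nqo1 did not pass the test, and the difference between them was not tested. Hmox1, the heme oxygenase (chromosome 8, 75093621 to 75100589), was at 9.59, 8.62, 8.33, 8.36 and 8.83 log2 CPM in HFD control mice 1 to 5 and at 7.80, 7.99 and 8.53 in IMC-treated mice. Only IMC-treated mouse 4 lay inside the control range. The log2 fold change was -0.69 (SE 0.20, limma adjusted p = 0.0143), and -0.48 (limma adjusted p = 0.0159) without HFD control mouse 1. Nqo1, the quinone reductase, was low in this tissue, at 3.54, 2.55, 2.35, 2.39 and 3.11 log2 CPM in the controls and at 2.11, 2.85 and 3.0 with IMC. Its difference of -0.04 (95% interval -0.52 to 0.43) became 0.14 without HFD control mouse 1, and neither passed.

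An order over the controls in which mouse 1 was highest and mice 3 and 4 were lowest, noticed after the values were seen, was found in 13 of the 43 members (30.2%), against 3.35% of all listed genes. Of these 13, Prdx1, Srxn1, Txn1, Txnrd1 and Hmox1 were lower with IMC, Cat was higher, and Gclc, Gsr, Gss, Nqo1, Sod1, Txn2 and Gsta3 did not pass the test. Lower calls also outnumbered higher ones among all 428 listed genes with this order, with 128 lower, 41 higher and 259 not called. With HFD control mouse 1 left out, the 5 lower genes were still lower by limma, with log2 fold changes between -0.76 and -0.25. Summed macrophage and mast cell markers were lower in IMC-treated mice too. Over control mice 1 to 5 the macrophage sum was 19148, 14927, 17304, 15515 and 14791 CPM, highest in mouse 1 and lowest in mice 2 and 5. The mast cell sum was 1149, 554.7, 501.8, 528.8 and 660.6 CPM, highest in mouse 1 and lowest in mice 3 and 4. The part of macrophage or mast cell content in these differences was not tested.

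**Figure D4:**
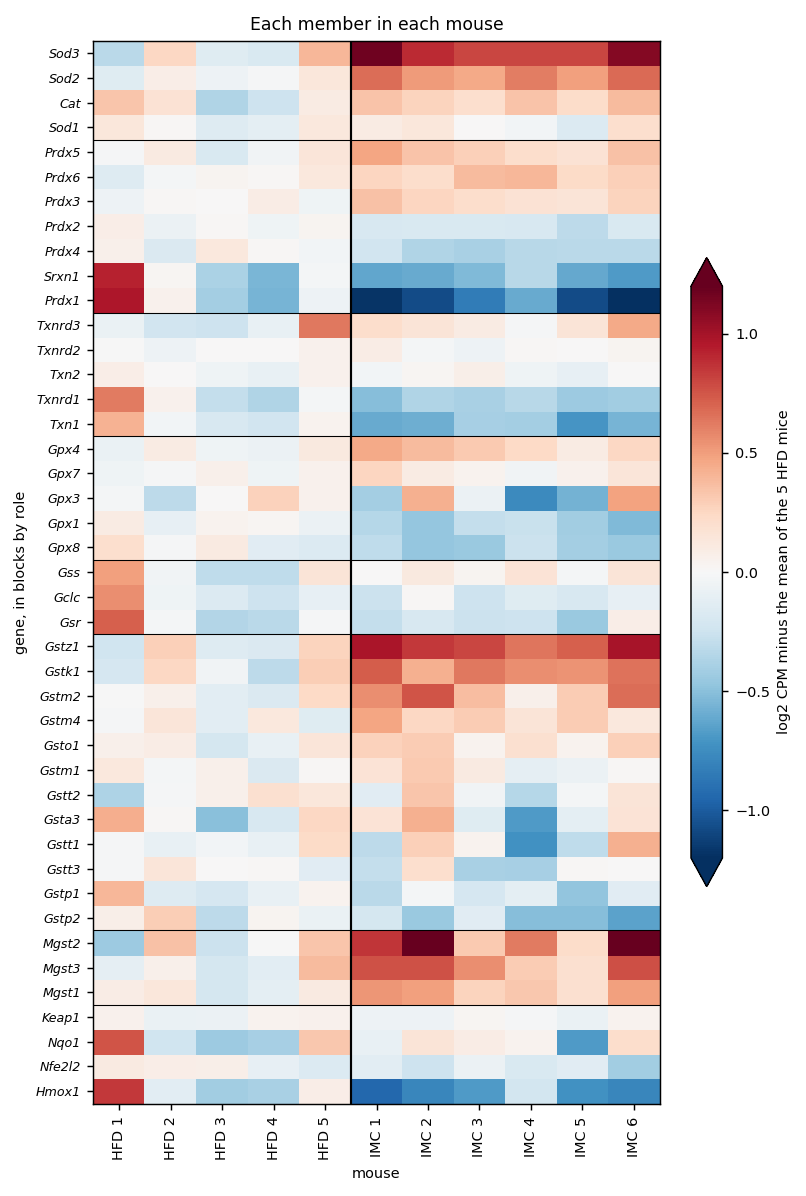
Heat map of the 43 members (rows, in blocks by role) in the 11 mice (columns), coloured by log2 CPM minus the mean of the 5 HFD control mice (red above, blue below). The column of HFD control mouse 1 is red for Prdx1, Srxn1, Txnrd1, Gclc, Gsr, Nqo1 and Hmox1, and the rows of Sod3, Gstz1 and the Mgst genes are red across the IMC-treated mice.

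Genes around the enzymes were read from 7 further lists of 119 listed genes in all, of which 36 were higher (30.3%, against 20% of all genes) and 32 lower (26.9%, against 21%). Enzymes that supply NADPH, the electron source of Gsr and the thioredoxin reductases, had 6 of 15 genes higher and 1 lower. Malic enzyme (Me1, log2 fold change 0.51, SE 0.10) and G6pdx, the entry to the pentose phosphate pathway (log2 fold change 0.28, SE 0.06), were higher without overlap. A list labelled aldehyde detoxification held aldehyde dehydrogenase genes with Adh1, Adh5, Glo1 and Hagh. It had 8 of 16 genes higher and 2 lower, led by Aldh1l1 (log2 fold change 0.85, SE 0.11) and Aldh6a1 (log2 fold change 0.78, SE 0.11). A place in this list does not show a role in detoxification. Glutaredoxins and methionine sulfoxide reductases, which mend oxidized thiols and methionines, had 5 of 11 higher and 2 lower, with Msrb3 at 0.65 (SE 0.08) and Msra at 0.36 (SE 0.06).

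Of genes for cystine uptake and glutathione export and breakdown, 5 of 17 were higher and 4 lower (29.4% and 23.5%, near the 20% and 21% of all genes). Cth, which makes cysteine from cystathionine, rose by 0.63 (SE 0.08), and the dipeptidase gene Dpep2 had a log2 fold change of -0.54 (SE 0.08). Selenoprotein genes had 5 of 18 higher and 4 lower (27.8% and 22.2%, also near those of all genes), with Selm at -0.77 (SE 0.08) and Sepsecs, which makes selenocysteine on its tRNA, at 0.53 (SE 0.08).

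Partners, regulators and other targets of NRF2 had 10 of 25 genes lower (40%, against 21% of all genes) and 4 higher (16%, against 20%). The genes with the smallest p were both higher, Aox1 (aldehyde oxidase, log2 fold change 0.74, SE 0.08) and Nfe2l1 (a relative of NRF2, log2 fold change 0.50, SE 0.05). The lower ones included Akr1b8 (-1.26), Cbr3 (-0.92), Blvrb (-0.78) and the ferritin genes Ftl1 (-0.64) and Fth1 (-0.55). These 5 are named after their values were seen. Without HFD control mouse 1, 9 genes of this list were lower and 3 higher.

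Oxidases that make superoxide or hydrogen peroxide had the highest share of lower genes of the lists, 9 of 17 (52.9%, against 21% of all genes). Another 3 were higher (17.6%, against 20%). The smallest p belonged to a higher gene, Lox, which crosslinks collagen (log2 fold change 0.82, SE 0.09). The lower genes included 5 subunits of the phagocyte NADPH oxidase, named after their values were seen, from Ncf1 (-0.86) and Rac2 (-0.73) through Cyba (-0.73) and Ncf4 (-0.68) to Cybb (-0.55). These genes are known from phagocytes, whose macrophage markers were lower in IMC-treated mice (7985 to 12130 CPM against 14791 to 19148 CPM), and the part of cell content was not tested.

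**Figure D5:**
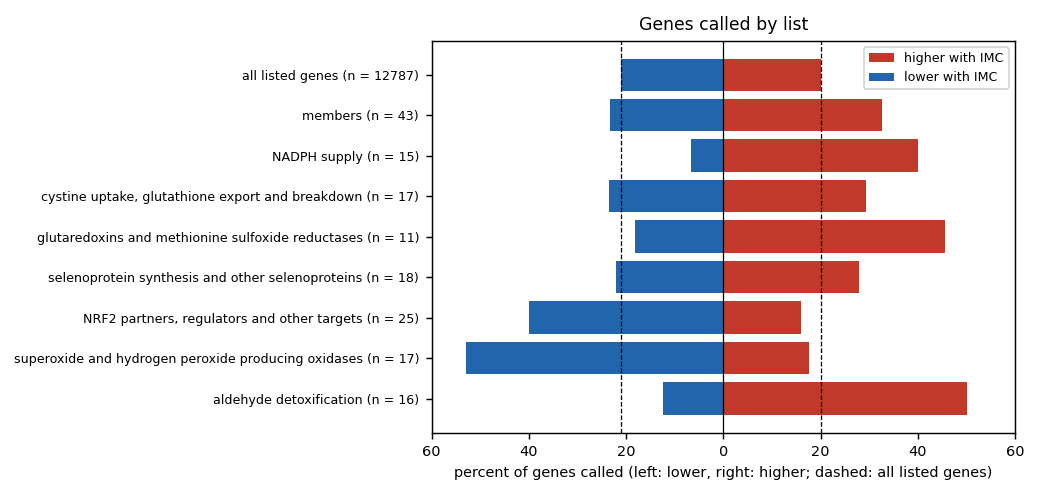
Percent of genes called higher (red, right) or lower (blue, left) with IMC in all listed genes, the 43 members and 7 lists of related genes, with dashed lines at the shares of all listed genes (20% and 21%). The oxidase list reaches 52.9% on the lower side and the aldehyde list 50% on the higher side.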

How the data were processed

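RNA of gonadal WAT was sequenced from 11 mice with a directional mRNA kit. The authors trimmed the reads, used STAR with the mm10 genome and UCSC annotations, counted reads per gene, filtered low counts and scaled libraries by the upper quartile with edgeR. The strand setting of the counting is not given in the sources used here. A further control sample was dropped by the authors for quality. The authors deposited log2 CPM for 12787 genes per mouse (upper quartile 6.13 in every mouse). The deposited table also holds the authors' own log2 fold change, mean log2 CPM, likelihood-ratio statistic (a score), p-value and adjusted p-value, which were not used. It held 0 columns of other samples.

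Groups were taken from the sample labels and compared with limma 3.58.1 in R 4.3.3 (lmFit, eBayes with trend, group as the only factor), with Benjamini-Hochberg adjustment over all 12787 genes and a threshold of 0.05. "Higher", "lower", "rose" and "fell" refer to this test. The test sets the difference of the groups against the spread between mice, with variances moderated across genes. In all libraries 100% of the values came within 0.1 reads of a whole number of reads, after a constant of 0.236 to 0.264 reads, 1 read being worth 0.0403 to 0.0450 CPM. These reads served depth and alternatives only. Depth covers counting error only, and the lowest value of any listed gene was 5 reads.

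Exon length, coordinates and overlaps came from GENCODE M21 (GRCm38, the build of mm10), which matched 43 of 43 members. Exon length was that of all basic exons of a gene merged, and not that of the UCSC annotations used for counting. Levels and shares per kilobase depend on it. Of these, 15 overlap another gene, 5 of them on the same strand (Gsr, Gstt3, Mgst2, Nfe2l2 and Txnrd1). Reads could also be split where more than 10% of a gene's 50-base words occur in other transcripts, as for 6 members (the GST genes named in the report, Gpx4, and Sod2 with 21%). Shared words took the place of the planned protein identity, since protein sequences were not used here. Promoter windows came from RefSeq (GRCm38.p6).

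The members and all gene lists were chosen with earlier results of these data known. Values of each control mouse, and the lowest, median and highest of the IMC-treated mice, are given for the 15 members with the largest absolute change among those called, the most abundant per kilobase in each of 8 classes, and Nfe2l2, Keap1, Nqo1, Hmox1, Cat, Gclc, Gsr, Gss and Srxn1. Of each list around the enzymes, the 2 genes with the smallest p are named, except for results that are not reported here, and further names are marked as chosen later. The alternatives were total-count and median-of-ratios scaling, an added constant of 2 reads, no trend, limma voom, only genes at 1 CPM or more in every mouse, and leaving out each mouse. The lists without HFD control mouse 1 were an alternative chosen after seeing the data. The fit and the recovery of reads were tested on simulated data.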

Additional observations from a re-analysis of the deposited data

Results flagged for a closer look

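Within each group, the gap between an extreme mouse and its nearest neighbour was compared with the range of the group by Dixon's criterion, over 86 combinations of a member and a group. It singled out 6 of them (6.98%), where chance alone gives about 1 in 20. Gclc, the ligase subunit of glutathione synthesis, was at 5.85 log2 CPM in HFD control mouse 1, against 5.04 to 5.24 in the other controls. HFD control mouse 5 was high for Txnrd3 (4.33, others 3.45 to 3.62 log2 CPM) and for Gstt1 (5.52, others 5.2 to 5.28 log2 CPM). In IMC-treated mouse 4, Hmox1 was at 8.53 log2 CPM, against 7.80 to 8.07 in the other IMC-treated mice. IMC-treated mouse 5 was low for Nqo1 (2.11, others 2.70 to 3.0 log2 CPM) and for Prdx2 (6.94, others 7.06 to 7.07 log2 CPM), the latter a gap of only 0.12. Prdx1, Srxn1 and Txnrd1 in HFD control mouse 1 did not meet the criterion.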

How the results depend on the processing

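Of the 24 members called, 20 kept their call and direction in all 17 alternatives and 0 changed direction. The 4 others were Cat, Srxn1, Txnrd1 and Nfe2l2. Cat was also lost under total-count scaling, without the trend and with limma voom (log2 fold change 0.26 to 0.29, limma adjusted p 0.0513 to 0.0686), and Srxn1 (0.0534) and Nfe2l2 (0.052) without the trend. Leaving out a mouse, the members higher numbered 13 to 15 and those lower 7 (without HFD control mouse 2) to 10, the NRF2 axis had 1 to 2 calls (1 without the trend) and the thioredoxin class 1 to 3. Over all genes, 4299 to 5125 passed. Of the 19 members not called, 3 passed in some alternative (Gsto1, Gstp2 and Txnrd3), and 7 changed sign near 0 when a mouse was left out, with log2 fold changes between -0.004 and 0.20 for Gss, -0.16 and 0.10 for Gsta3, -0.20 and 0.03 for Gstt1, -0.10 and 0.056 for Gstt2, -0.15 and 0.14 for Nqo1, -0.037 and 0.005 for Txn2, and -0.01 and 0.022 for Txnrd2, which was also -0.025 under total-count scaling. The cause was not tested. Total-count scaling moved the median of all genes by -0.03 and gave 2203 higher genes of 5464. In the other role classes the number of calls stayed within 1.5 times that reported, as it did in the 7 lists under the alternatives run for them, both scalings and leaving out HFD control mouse 1.

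These values are limited by 5 and 6 mice per group, by RNA from whole tissue in which the adipocyte and macrophage markers differed between the groups, and by a table that starts after the removal of low genes. Transcript levels do not give enzyme activity or glutathione content. No paired analysis was possible because the labels give no numbers shared between the groups.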
